A study of Mus musculus with 12 samples.

Results

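Fibronectin and 9 matricellular or matrix-associated glycoproteins were followed through aortic vascular smooth muscle cells (VSMC). The 10 genes, Fn1, Sparc, Spp1, Mgp, Tnc, Thbs1, Thbs2, Postn, Vcan and Ecm1, were chosen by name, and all 10 were found among the 26301 identifiers of the RNA-seq table and the 15352 identifiers of the RNA immunoprecipitation (RIP-seq) tables. The cells were primary VSMC from the aorta of C57BL/6 mice aged 6 weeks. Thoc5, a subunit of the THO complex, was silenced in 2 libraries with a short hairpin RNA (shThoc5), against 2 libraries with a hairpin labelled shNT. RNA was taken 4 days after infection, at passages 4 to 8, and both shThoc5 libraries carry the same hairpin number. Thoc5 and Thoc2, a further THO subunit, were immunoprecipitated at passage 10 and at passage 3, with 1 Thoc5 library, 1 Thoc2 library and 1 input library at each passage. Whether the libraries come from separate mice or dishes is not stated in the labels, so the p-values below reflect differences among the sequenced libraries, possibly technical ones. The labels give no further allele or agent for any group. The 2 chromatin immunoprecipitation libraries of the series were not analysed here.

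Fibronectin is a large secreted glycoprotein that cells assemble into fibrils and bind through integrins. Matricellular proteins are secreted into the matrix and tune adhesion, growth factor access and collagen assembly more than they bear load. In arteries many of them are low in contractile smooth muscle and high during development, after injury and in cultured cells of the synthetic state. The THO complex joins the transcribing gene and hands mRNA to the nuclear export machinery.

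Promoter windows are shown for members that stood farthest from equality below: Tnc, Thbs2, Vcan and Ecm1, which were lower in the passage 10 input, Postn, which was higher there, and Sparc, which had the lowest fold change after Thoc5 silencing. Each window runs from 250 bases before to 50 bases after an annotated start in RefSeq, in GRCm38.p6, and is written 5′ to 3′ on the gene's strand. Of the 10 genes, 7 had a window in the RefSeq table, and where a gene had several starts the one farthest downstream is shown. Capitals mark the letters of a TATA box (TATAAA), a GC box (GGGCGG) or an AP-1 site (TGANTCA), on either strand.
Tnc (chr4:64046887-64047186, minus strand): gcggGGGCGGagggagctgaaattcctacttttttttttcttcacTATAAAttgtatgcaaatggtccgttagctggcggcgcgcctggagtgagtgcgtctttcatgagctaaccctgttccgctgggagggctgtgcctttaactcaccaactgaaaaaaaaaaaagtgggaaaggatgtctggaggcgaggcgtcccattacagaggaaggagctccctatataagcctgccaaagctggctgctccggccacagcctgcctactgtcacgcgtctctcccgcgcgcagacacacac
Thbs2 (chr17:14694213-14694512, minus strand): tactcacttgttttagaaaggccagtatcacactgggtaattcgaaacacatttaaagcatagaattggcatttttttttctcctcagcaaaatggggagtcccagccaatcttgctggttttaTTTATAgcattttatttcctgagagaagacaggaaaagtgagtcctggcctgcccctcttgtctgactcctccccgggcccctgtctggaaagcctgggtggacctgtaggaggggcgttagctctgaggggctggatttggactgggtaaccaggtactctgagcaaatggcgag
Vcan (chr13:89742463-89742762, minus strand): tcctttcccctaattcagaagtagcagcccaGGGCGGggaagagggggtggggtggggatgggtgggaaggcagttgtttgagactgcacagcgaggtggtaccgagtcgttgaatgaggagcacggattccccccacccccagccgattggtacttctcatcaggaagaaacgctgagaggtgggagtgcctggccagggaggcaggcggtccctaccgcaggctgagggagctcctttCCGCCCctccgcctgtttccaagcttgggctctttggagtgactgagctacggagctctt
Ecm1 (chr3:95739520-95739819, minus strand): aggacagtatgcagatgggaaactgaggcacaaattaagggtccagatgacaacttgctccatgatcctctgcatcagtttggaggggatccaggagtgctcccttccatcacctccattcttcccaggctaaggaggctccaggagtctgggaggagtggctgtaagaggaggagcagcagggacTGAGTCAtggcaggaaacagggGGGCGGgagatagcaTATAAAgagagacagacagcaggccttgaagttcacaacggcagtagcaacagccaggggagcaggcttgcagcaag
Postn (chr3:54360857-54361156, plus strand): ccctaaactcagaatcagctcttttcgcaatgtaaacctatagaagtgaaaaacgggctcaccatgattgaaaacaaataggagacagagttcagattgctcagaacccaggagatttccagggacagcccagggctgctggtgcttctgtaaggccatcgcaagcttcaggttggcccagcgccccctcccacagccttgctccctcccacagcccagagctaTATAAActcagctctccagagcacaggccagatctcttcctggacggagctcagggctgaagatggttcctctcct
Sparc (chr11:55420031-55420330, minus strand): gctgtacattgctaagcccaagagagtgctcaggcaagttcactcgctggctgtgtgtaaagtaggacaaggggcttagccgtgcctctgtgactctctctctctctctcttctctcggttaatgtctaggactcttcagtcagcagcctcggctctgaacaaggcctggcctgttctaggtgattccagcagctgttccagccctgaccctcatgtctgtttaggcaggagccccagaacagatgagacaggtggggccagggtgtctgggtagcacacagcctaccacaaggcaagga

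The 6 windows differed in these letters. Ecm1 held the TATA letters 27 bases before its start, GC letters 42 bases before it and AP-1 letters 64 bases before it. Postn held the TATA letters 26 bases before its start, Thbs2 held them on the other strand 126 bases before it, and Vcan held GC letters at 219 and 10 bases before it. The Tnc window held TATA letters 205 bases and GC letters 246 bases before the start. Only exact letters were counted, so close variants, such as tatataa nearer the Tnc start, are not marked. None of the motifs searched lay in the Sparc window. Across 32851 RefSeq windows of the same length, TATAAA occurred in 13.6%, GGGCGG in 35.7% and TGANTCA in 7.81%. TEAD letters (CATTCC) occurred in 14.7% and the CArG box of serum response factor in 1.63% of them, and in none of the 6 shown windows. The searches covered both strands, and no motif overlapped another in these windows. Fn1, Thbs1 and Mgp had no window in that table.

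RNA sequencing gave 20206296 and 15819207 counted reads with shThoc5 and 18498200 and 21037732 with shNT. The RIP-seq libraries held 9364965 (Thoc5), 16303503 (Thoc2) and 19038973 (input) reads at passage 10, and 5975866 (Thoc5), 5396291 (Thoc2) and 36336141 (input) reads at passage 3. Ribosomal and mitochondrially encoded RNA took 19.8% of the passage 3 Thoc2 library, against 1.43% to 8.31% of the other RIP-seq libraries. Thoc5 itself was at 7.37 and 5.75 CPM (counts scaled to the library's total) with shThoc5, against 33.5 and 38.9 CPM with shNT, a log2 fold change of −2.51 (SE 0.21) with an adjusted p of 0.4986 by edgeR's quasi-likelihood test and of 1.547e-14 by DESeq2, which called it. Acta2, an early smooth muscle marker, was at 799 and 1181 CPM with shThoc5 and at 1232 and 2430 CPM with shNT. The late marker Myh11 was at 3.22 to 4.94 CPM, and Myocd, the smooth muscle coactivator, was under 1 CPM in all 4 libraries. The leukocyte marker Ptprc had 0 reads in 3 of the 4 libraries and 0.0475 CPM in shNT replicate 2.

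Matricellular transcripts took a large share of the counted reads in the silenced cells and in their controls. The 10 genes took 4.59% and 3.63% of counted reads with shThoc5, against 4.71% and 3.78% with shNT. Fn1 held more reads than any other gene in all 4 libraries, with 2.82% and 1.96% of reads with shThoc5 and 2.63% and 1.83% with shNT. Thbs1 ranked directly after it in all 4. Replicate 1 had the larger share in both groups.

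**Figure D1:**
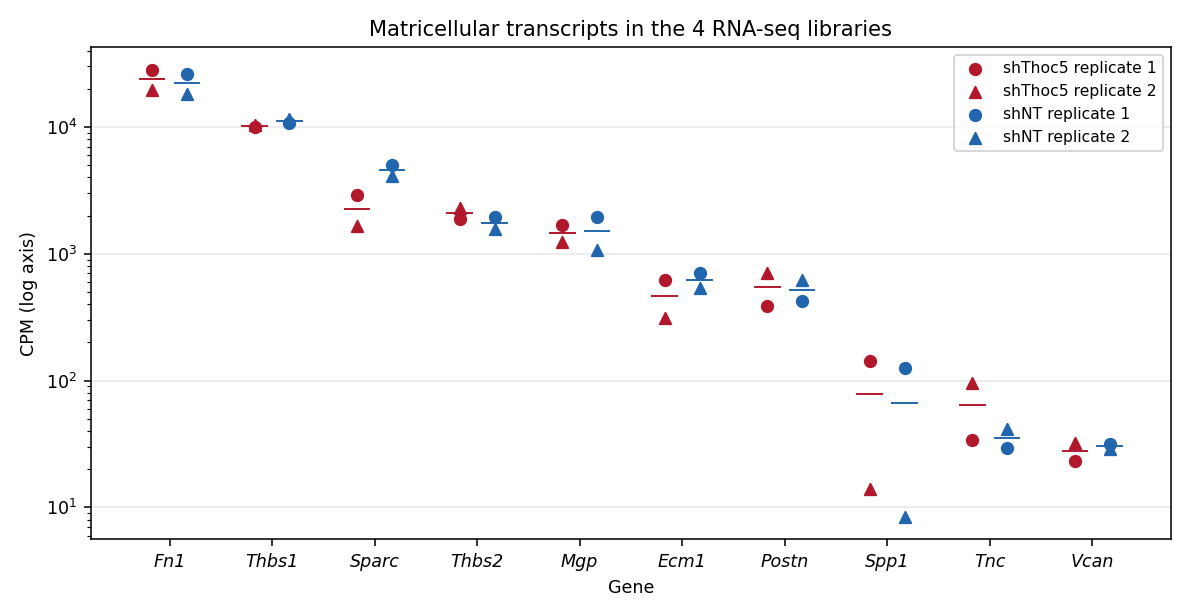
Level in CPM (log axis) of the 10 genes in the 2 shThoc5 libraries (left of each pair) and the 2 shNT libraries (right), with circles for replicate 1, triangles for replicate 2 and bars at the group means. The groups overlap for all genes except Sparc and Thbs1, and Spp1 splits by replicate number within each group.

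Levels per gene length (RPKM, from the authors' gene lengths) spanned a wide range between members. With shThoc5, Fn1 averaged 2880 ± 731 RPKM, Mgp 2438 ± 540, Thbs1 1747 ± 33.9 and Sparc 986 ± 381 (SD, n = 2). In shNT cells, Fn1 averaged 2678 ± 681 RPKM, Mgp 2524 ± 1034, Sparc 1976 ± 284 and Thbs1 1922 ± 119 (SD, n = 2), so these 4 neighbours did not differ beyond their spread there. Next came Thbs2, Ecm1 and Postn, at 355 ± 50.8, 244 ± 113 and 170 ± 69.3 RPKM with shThoc5, and at 295.5 ± 45.4, 327 ± 58.6 and 164 ± 42.3 RPKM with shNT. The spreads of Thbs2 and Ecm1 overlapped within each group. Spp1 averaged 55.8 ± 64.9 RPKM with shThoc5 and 47.6 ± 58.9 RPKM with shNT, an error larger than the level. The lowest members were Tnc, at 9.46 ± 6.29 RPKM with shThoc5 and 5.20 ± 1.26 RPKM with shNT, and Vcan, at 1.90 ± 0.434 RPKM with shThoc5 and 2.06 ± 0.136 RPKM with shNT.

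None of the 10 genes passed an adjusted p of 0.05 on Thoc5 silencing in edgeR's quasi-likelihood test, fitted on group alone. In that fit over all genes, 0 of 13569 genes (0.0%) passed, and 651 (4.8%) had a p under 0.05 before adjustment. DESeq2 called 47 of 10412 (0.451%), none of them among the 10, with 566 genes (5.44% of 10412) at a p under 0.05 before adjustment. The 566 may include genes outside the 10412, so 5.44% cannot be compared with the shares of the other tests. Limma-voom called 0 of 13569, with 4.76% at a p under 0.05 before adjustment. With 2 libraries against 2, a two-sided exact permutation test cannot go below 0.333. All 10 genes passed the filter on low counts. Their median log2 fold change was −0.05, with 5 above and 5 below 0, against 0.01 over all 13569 genes.

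Sparc, a collagen-binding glycoprotein also called osteonectin, had the lowest fold change of the 10. It was at 2886 and 1649 CPM with shThoc5, against 5005 and 4081 CPM with shNT. Both shThoc5 libraries lay below both shNT libraries. The log2 fold change was −1.05 (SE 0.31), with an unadjusted p of 0.0164 and an adjusted p of 0.9995 by edgeR's quasi-likelihood test. DESeq2 gave a log2 fold change of −1.05 and an adjusted p of 0.0571, also short of a call. Sparc was called only in a fit with the replicate number as a block, which is given in the closing section. The labels do not say what that number shares. The authors' deposited table gives Sparc a log2 fold change of −1.10, a p-value of 0.0492 and an adjusted p-value of 0.9999. In bulk RNA, fewer cells that make a transcript and less of it per cell cannot be told apart. Of 7 endothelial markers, 6 passed the filter and all 6 had a log2 fold change below 0, with a summed level of 297 and 301 CPM with shThoc5 against 389 and 616 CPM with shNT. The 7 smooth muscle markers summed to 1386 and 2315 CPM with shThoc5 and 1976 and 4040 CPM with shNT, and all 6 that passed the filter were below 0 too. Below 0 were also 4 of 5 tested adventitial fibroblast, 2 of 4 macrophage, 2 of 3 chondrocyte and bone and 0 of 3 heart muscle markers. Over all 13569 genes tested, 6610 were below 0 and 6959 above. The part of these cell types in the Sparc values was not tested.

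Thbs1 was the other member whose groups did not overlap. This thrombospondin, which binds Cd47 and activates latent transforming growth factor β, was at 9996 and 10275 CPM with shThoc5, against 10662 and 11641 CPM with shNT. The shThoc5 libraries were lower by a small margin, with a log2 fold change of −0.19 (SE 0.19, adjusted p = 0.9995 by edgeR). Among all genes tested, 12.4% had both shThoc5 libraries below both shNT libraries and 21.4% had both above, so 2 of 10 below and 0 of 10 above are counts to be read against those shares. Thbs2, its paralogue, was at 1889 and 2314 CPM with shThoc5, against 1940 and 1560 CPM with shNT. Its groups overlapped, and its log2 fold change was 0.22 (SE 0.20, adjusted p = 0.9995 by edgeR).

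Fn1, the member with the most reads, was at 28235 and 19647 CPM with shThoc5, against 26265 and 18256 CPM with shNT. The libraries fell into the same order in both groups, with replicate 1 high and replicate 2 low. The log2 fold change was 0.06 (SE 0.29, adjusted p = 0.9995 by edgeR). Tenascin-C, encoded by Tnc and known for weakening cell adhesion to fibronectin, was at 34.2 and 95.0 CPM with shThoc5, against 29.4 and 41.6 CPM with shNT. Only shThoc5 replicate 2 stood above the shNT libraries, and the log2 fold change of 0.81 (SE 0.49, adjusted p = 0.9995 by edgeR) became −0.11 without it. An overlapping counted gene, 8030451A03Rik, held 143 reads over the 4 libraries.

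Spp1, or osteopontin, is an integrin-binding phosphoprotein of synthetic and mineralising smooth muscle. It was at 143 and 14.0 CPM with shThoc5, against 126 and 8.41 CPM with shNT. Replicate 2 was lower than replicate 1 by 3.36 on the log2 scale with shThoc5 and by 3.90 with shNT, and the log2 fold change between the groups was 0.20 (SE 1.38, adjusted p = 0.9995 by edgeR). Of the chondrocyte and bone markers, which summed to 750 and 290 CPM with shThoc5 and 780 and 458.5 CPM with shNT, Col2a1 made up most and was lower in replicate 2 of both groups, at 684 and 237 CPM with shThoc5 and 720.0 and 395 CPM with shNT. Sox9 was at 34.1 and 22.9 CPM with shThoc5 and 29.9 and 39.6 CPM with shNT, so within shNT replicate 2 was the higher, and Ibsp was at 0 in all 4 libraries. The 7 macrophage markers summed to 21.7 and 14.9 CPM with shThoc5 and 19.2 and 19.8 CPM with shNT, most of it Cd14, while Ptprc, Adgre1 and Tyrobp stayed at or below 0.0951 CPM. The part of the Col2a1 difference in the Spp1 values was not tested.

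The other members had overlapping groups. Mgp, a vitamin K-dependent inhibitor of arterial calcification, was at 1689 and 1232 CPM with shThoc5, against 1950 and 1074 CPM with shNT. Postn, or periostin, which helps collagen fibrils form and crosslink, was at 386.5 and 699 CPM with shThoc5, against 427 and 618 CPM with shNT. Both genes differed more between replicates of a group than between groups. Ecm1, a secreted glycoprotein that binds other matrix components, was at 616 and 312.5 CPM with shThoc5, against 699 and 542 CPM with shNT. Vcan, the large hyaluronan-binding proteoglycan versican, was at 23.4 and 32.4 CPM with shThoc5, against 31.7 and 28.8 CPM with shNT. The log2 fold changes of these 4 genes lay between −0.47 (Ecm1, SE 0.34) and 0.001 (Postn, SE 0.34), with adjusted p of 0.9995 to 0.9998 by edgeR.

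Genes that work with the members were tested in the same fit. Of 26 other matricellular and adhesive glycoproteins 19 were tested, of 20 receptors 19, of 16 hyaluronan and versican partners 11, and of 15 genes of the matrix Gla pathway and mineralisation 12. None of these 61 genes passed an adjusted p of 0.05 in edgeR's test, and 1 had an unadjusted p under 0.05. That gene was Tnfaip6, which encodes a hyaluronan-binding protein, at 2.82 and 2.21 CPM with shThoc5 against 4.11 and 4.99 CPM with shNT. The basement membrane gene Nid2 was at 281 and 262 CPM with shThoc5 against 214 and 194 CPM with shNT, with a log2 fold change of 0.36 (SE 0.15). Tlr4, an innate immune receptor that also responds to fibronectin and tenascin-C fragments, was at 60.8 and 64.9 CPM with shThoc5 against 77.7 and 72.5 CPM with shNT. Ank, a pyrophosphate transporter that restrains mineralisation, was at 309 and 292 CPM with shThoc5 against 330 and 506 CPM with shNT. The median log2 fold changes of the 4 lists were −0.07, −0.13, 0.12 and −0.09 in the order given.

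Recovery with the THO subunits followed, across the 10 genes, the authors' deposited length of each gene. That length ran from 599 bases (Mgp) to 14689 bases (Vcan). The span of a gene on the chromosome was not used, here or below, so the values say nothing about it. RIP-seq enrichment is given as the log2 ratio of CPM in the immunoprecipitate to CPM in the input after adding 0.5 CPM, with a 95% exact (Clopper-Pearson) interval that covers counting error only. With 1 library of each kind there is no replicate check and no test. A gene was called at 2-fold or more with at least 10 reads and 1 CPM in the higher library. The Thoc5 and Thoc2 ratios of a passage share 1 input library. Heart muscle markers stood apart at passage 3. With Thoc5, 4 of 4 listed were enriched past 2-fold, where 20.8% of all genes were. Their median log2 ratio was 1.72, and they summed to 26.6 CPM against 7.02 CPM in the input. With Thoc2, 6 of 6 listed were enriched past 2-fold, where 16.1% of all genes were. Their median was 3.60, and they summed to 142.5 CPM against 7.32 CPM in the input. Over the 4 markers listed with both antibodies, the Thoc2 sum was 130.6 CPM. At passage 10 the 4 listed markers summed to 34.3 CPM with Thoc5 and 28.5 CPM with Thoc2 against 46.0 CPM in the input. There 0 of 4 markers were enriched past 2-fold with Thoc5 (5.66% of all genes) and 2 of 4 with Thoc2 (11.5% of all genes). The median log2 ratios of these markers were −0.39 with Thoc5 and 0.20 with Thoc2. Their part in the members' ratios was not tested.

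**Figure D2:**
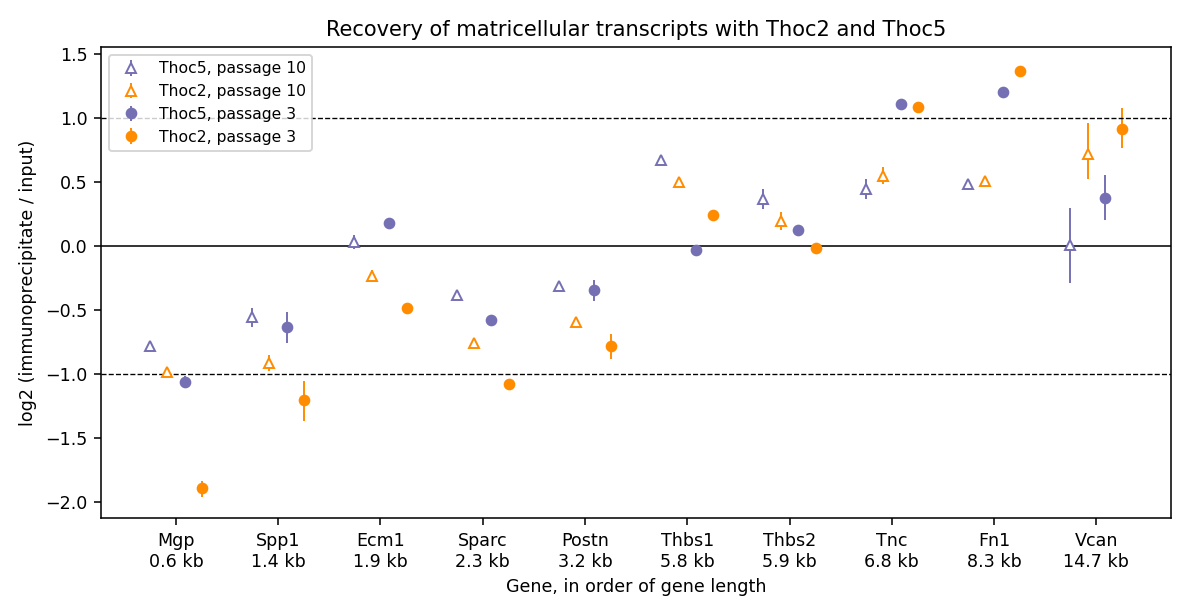
Log2 ratio of immunoprecipitate to input for the 10 genes, in order of the authors' gene length. Triangles mark passage 10 and circles passage 3, with purple for Thoc5 and orange for Thoc2. Bars are 95% exact intervals for counting error and dashed lines mark 2-fold; only passage 3 points lie beyond the dashed lines.

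At passage 3, Fn1 and Tnc were the 2 members enriched past 2-fold on library totals, with both antibodies. Fn1 was at 4612 CPM in the Thoc5 library against 2005 CPM in the input, a log2 ratio of 1.20 (1.18 to 1.22). With Thoc2 it was at 5165 CPM, a log2 ratio of 1.37 (1.34 to 1.38). Both immunoprecipitates were thus above the input by more than 2-fold. Tnc was at 2153 CPM with Thoc5 and 2116 CPM with Thoc2 against 996 CPM in the input, log2 ratios of 1.11 (1.08 to 1.14) and 1.09 (1.06 to 1.12). Scaling by the median of ratios left neither gene past 2-fold with Thoc5. With ribosomal and mitochondrially encoded RNA left out of the totals, Vcan also passed 2-fold with Thoc2, at a log2 ratio of 1.13. Among all genes, 20.8% of 14723 were enriched past 2-fold with Thoc5 and 16.1% of 14635 with Thoc2, so 2 of 10 members is close to the background.

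Mgp, Sparc and Spp1 lay below the input at passage 3 with both antibodies. Mgp, the shortest of the 10, was at 685 CPM with Thoc5 and 384.5 CPM with Thoc2 against 1435 CPM in the input, log2 ratios of −1.06 (−1.11 to −1.02) and −1.90 (−1.96 to −1.84). It was past 2-fold lower with both antibodies. Sparc was at 3800 CPM with Thoc5 and 2686 CPM with Thoc2 against 5687 CPM in the input, log2 ratios of −0.58 and −1.08. Spp1 was at 102 CPM with Thoc5 and 68.6 CPM with Thoc2 against 159 CPM in the input, log2 ratios of −0.63 and −1.21. Sparc and Spp1 therefore passed 2-fold with Thoc2 alone, and neither did with ribosomal and mitochondrially encoded RNA left out of the totals. The depleted counts were 1 of 10 with Thoc5 and 3 of 10 with Thoc2, against 11.5% and 19.5% of all genes, which is no result about the members. Ecm1, shorter than Sparc, was not among them.

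At passage 10 the same genes stood closer to the input, and none of the 10 passed 2-fold with either antibody. Among all genes, 5.66% were enriched and 4.39% depleted with Thoc5, and 11.5% were enriched and 6.88% depleted with Thoc2. Fn1 was at 6966 CPM with Thoc5 and 7071 CPM with Thoc2 against 4981 CPM in the input, log2 ratios of 0.48 (0.47 to 0.50) and 0.51 (0.49 to 0.52). Mgp was at 1268 CPM with Thoc5 and 1098 CPM with Thoc2 against 2178 CPM in the input, log2 ratios of −0.78 and −0.99. Both genes kept the direction they had at passage 3. The difference in Fn1's log2 ratio, passage 10 minus passage 3, was −0.72 with Thoc5 and −0.86 with Thoc2, where the median gene differed by −0.12 and 0.14. The standard deviation of the log2 ratio across the 10 members was 0.49 (Thoc5) and 0.67 (Thoc2) at passage 10 and 0.73 (Thoc5) and 1.09 (Thoc2) at passage 3. Across all genes with at least 50 reads it was 0.59 (Thoc5) and 0.81 (Thoc2) at passage 10 and 1.04 (Thoc5) and 1.20 (Thoc2) at passage 3, a narrower spread at passage 10 there too.

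Thrombospondins, periostin, Ecm1 and versican filled the middle of the range. Thbs1 had log2 ratios of 0.68 (0.65 to 0.70) with Thoc5 and 0.50 (0.48 to 0.52) with Thoc2 at passage 10, and of −0.03 and 0.24 at passage 3. Thbs2 lay between −0.02 and 0.36 in the 4 comparisons, and its sign at passage 3 turned under other scalings with both antibodies. Postn was below the input in all 4, with log2 ratios of −0.31 (Thoc5) and −0.60 (Thoc2) at passage 10 and −0.35 (Thoc5) and −0.79 (Thoc2) at passage 3. Postn thus joined Mgp, Sparc and Spp1 as a gene below input throughout. Ecm1 was at 0.03 (Thoc5) and −0.24 (Thoc2) at passage 10 and 0.18 (Thoc5) and −0.49 (Thoc2) at passage 3, and its Thoc5 values fell below 0 under median of ratios scaling. Vcan, the longest gene of the 10, had log2 ratios of 0.00 (−0.29 to 0.29) with Thoc5 and 0.72 (0.52 to 0.96) with Thoc2 at passage 10. At passage 3 they were 0.38 (0.20 to 0.56) with Thoc5 and 0.92 (0.76 to 1.08) with Thoc2, from 322 and 423 reads.

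**Figure D3:**
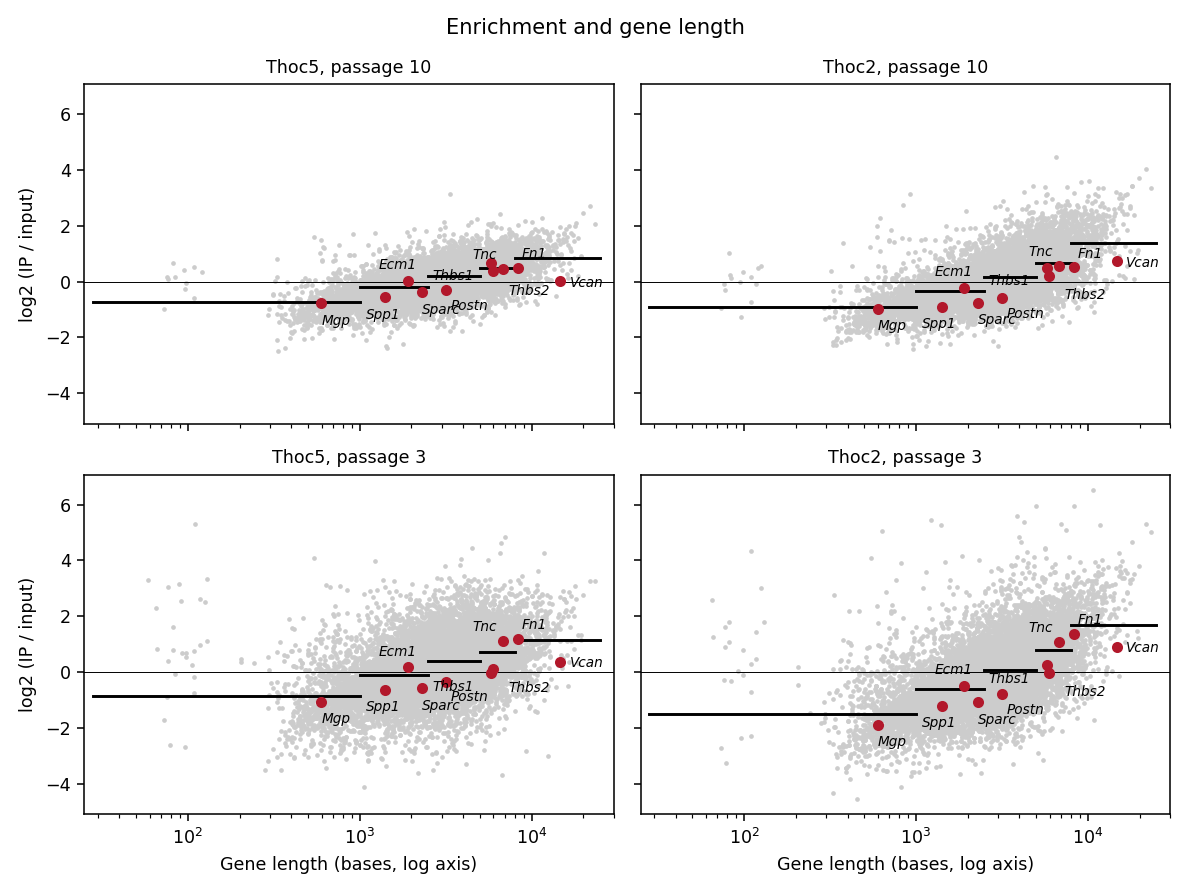
Log2 ratio of immunoprecipitate (IP) to input against the authors' gene length (log axis). Genes with at least 50 reads are grey and the 10 members red. Thoc5 is left and Thoc2 right, with passage 10 above and passage 3 below. Black lines are medians of 5 length classes, and the members follow the rise of the grey cloud, with Vcan below the line of its class in all 4 panels.

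The ranking by length held over the whole transcriptome. Across the 10 members the Spearman correlation of gene length with the log2 ratio was 0.685 (Thoc5) and 0.939 (Thoc2) at passage 10 and 0.842 (Thoc5) and 0.915 (Thoc2) at passage 3. Across all genes with at least 50 reads, 11109 to 11446 of them, it was 0.599 (Thoc5) and 0.63 (Thoc2) at passage 10 and 0.438 (Thoc5) and 0.593 (Thoc2) at passage 3. These are correlations across genes of the same libraries, which share depth and are not independent, and they are given as a description. Most members lay below the median of their own length class: 8 (Thoc5) and 9 (Thoc2) of 10 at passage 10, and 7 (Thoc5) and 8 (Thoc2) of 10 at passage 3. Fn1, for example, had a log2 ratio of 1.37 with Thoc2 at passage 3, where the 454 genes of 8000 bases or more had a median of 1.67. Vcan lay below its class by 0.66 to 0.84 in all 4 comparisons, and Ecm1 lay above its class by 0.09 to 0.28. The medians of all 10 members were 0.02 (Thoc5) and −0.02 (Thoc2) at passage 10 and 0.04 (Thoc5) and −0.25 (Thoc2) at passage 3, against 0.02 (Thoc5) and −0.04 (Thoc2) at passage 10 and 0.14 (Thoc5) and −0.17 (Thoc2) at passage 3 over all genes. The part of gene length in the values of single members was not tested.

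Thoc5 and Thoc2 recovered the 10 genes to within 2-fold of each other. No member passed 2-fold between the Thoc5 and the Thoc2 immunoprecipitate at either passage, where 12.8% of genes were higher and 5.36% lower with Thoc5 at passage 3, and 1.09% higher and 3.48% lower at passage 10. Vcan had log2 ratios of Thoc5 to Thoc2 of −0.72 at passage 10 and −0.54 at passage 3. Mgp had ratios of 0.21 at passage 10 and 0.83 at passage 3. The longest gene was thus lower and the shortest higher with Thoc5 at both passages, as were the medians of their length classes. Genes of 8000 bases or more had medians of −0.541 at passage 10 and −0.545 at passage 3. Genes under 1000 bases had medians of 0.222 at passage 10 and 0.653 at passage 3. None of the 10 was in the authors' deposited lists of selected target genes, which hold 560 genes for Thoc5 and 2277 for Thoc2 at passage 10, and 919 for Thoc5 and 1046 for Thoc2 at passage 3. Each list is a minor part of the 15352 identifiers of the RIP-seq tables, so the absence of 10 genes is no result about the members.

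The genes that work with the members were counted in the same way. With Thoc5 at passage 10, 2 of 19 listed other matricellular glycoproteins, 2 of 17 receptors, 1 of 10 hyaluronan and versican partners and 0 of 13 Gla and mineralisation genes were enriched past 2-fold, where 5.66% of all genes were. With Thoc2 at passage 10 the counts were 2 of 20 glycoproteins, 2 of 17 receptors, 0 of 11 hyaluronan partners and 0 of 14 Gla genes, where 11.5% of all genes were. With Thoc5 at passage 3 they were 4 of 21 glycoproteins, 3 of 19 receptors, 1 of 15 hyaluronan partners and 2 of 15 Gla genes, against 20.8% of all genes. With Thoc2 at passage 3 they were 1 of 21 glycoproteins, 3 of 20 receptors, 0 of 15 hyaluronan partners and 1 of 14 Gla genes, against 16.1% of all genes. Tnxb, a long tenascin gene, was at 24.1 CPM with Thoc5 and 48.3 CPM with Thoc2 against 9.45 CPM in the input at passage 10, and at 58.2 CPM with Thoc5 and 53.7 CPM with Thoc2 against 12.2 CPM in the input at passage 3. Lrp1, a large endocytic receptor for thrombospondins, was at 1736 and 2483 CPM with Thoc5 and Thoc2 against 865 CPM in the input at passage 10, and at 1585 and 2214 CPM against 447 CPM at passage 3. Both exceeded 2-fold in all 4 comparisons.

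The levels of the members themselves differed widely between the passage 10 input and the passage 3 input, with 1 library at each. Of the 10 genes, 2 were higher and 5 lower past 2-fold at passage 10, where 30.7% of 13018 genes were higher and 12.3% lower. The median log2 ratio of the 10 was −0.58 against 0.46 over all genes, and scaling by the median of ratios moved the median over all genes to −0.04. Values below are ratios of CPM, so the typical gene stands at 0.46, not at 0.

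**Figure D4:**
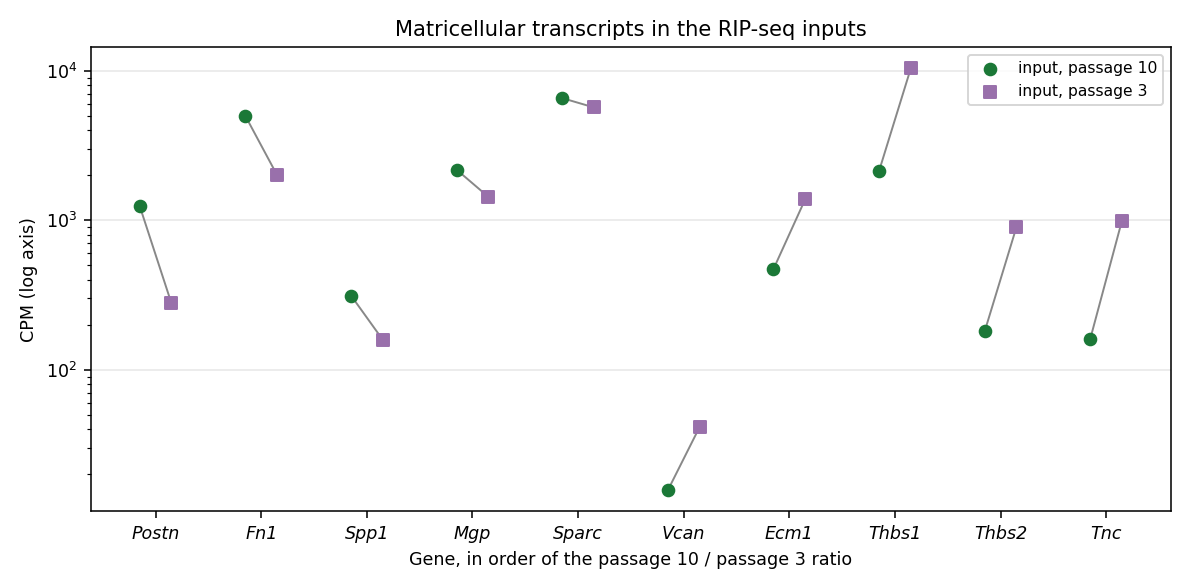
Level in CPM (log axis) of the 10 genes in the RIP-seq input at passage 10 (green circles, left) and at passage 3 (purple squares, right), joined by lines, in order of the ratio. Postn and Fn1 are higher past 2-fold at passage 10, and Vcan, Ecm1, Thbs1, Thbs2 and Tnc are lower.

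Postn was at 1239 CPM in the passage 10 input, against 278 CPM at passage 3, a log2 ratio of 2.16 (2.12 to 2.19). Fn1 was at 4981 CPM at passage 10 against 2005 CPM at passage 3, a log2 ratio of 1.31 (1.30 to 1.33), and was under 2-fold, at 0.78, with median of ratios scaling. Spp1 had a log2 ratio of 0.98, from 314 CPM at passage 10 and 159 CPM at passage 3, and Mgp had one of 0.60. All 4 genes stood above the typical gene of these inputs. Sparc was at 6563 CPM at passage 10 and 5687 CPM at passage 3, a log2 ratio of 0.21 that turned to −0.33 with median of ratios scaling.

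Both thrombospondins and tenascin-C were far lower at passage 10. Tnc was at 161 CPM at passage 10 against 996 CPM at passage 3, a log2 ratio of −2.62 (−2.68 to −2.57). Thbs2 was at 181 CPM at passage 10 against 898 CPM at passage 3, and Thbs1 at 2139 CPM at passage 10 against 10365 CPM at passage 3, with log2 ratios of −2.31 and −2.28. All 3 stayed past 2-fold lower under every scaling tried. Ecm1 was at 472 CPM at passage 10 against 1380 CPM at passage 3, and Vcan at 15.7 CPM against 41.3 CPM, with log2 ratios of −1.55 and −1.37. Of the windows printed above, those of Tnc, Thbs2, Vcan and Ecm1 belong to genes lower at passage 10 and that of Postn to a gene higher there.

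The order of the members by level per length therefore differed between the inputs. At passage 10, Mgp led at 3636 RPKM, followed by Sparc at 2855, Fn1 at 599, Postn at 389, Thbs1 at 369, Ecm1 at 248.5 and Spp1 at 222.5 RPKM, with Thbs2, Tnc and Vcan at 30.5, 23.6 and 1.07 RPKM. At passage 3, Sparc led at 2474 RPKM, followed by Mgp at 2395, Thbs1 at 1786, Ecm1 at 727, Fn1 at 241, Thbs2 at 152, Tnc at 146, Spp1 at 113, Postn at 87.1 and Vcan at 2.81 RPKM. With 1 library at each passage the spread behind this order is not known.

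Markers of other cell types also differed between the inputs, summed here over the genes listed at both passages. Over all genes, 30.7% were higher and 12.3% lower past 2-fold at passage 10. The 6 adventitial fibroblast markers summed to 168 CPM at passage 10 against 1628 CPM at passage 3, with 4 of 6 lower past 2-fold. Endothelial markers summed to 65.2 CPM at passage 10 against 194 CPM at passage 3, with 4 of 6 listed lower past 2-fold. Macrophage markers summed to 54.6 CPM at passage 10 against 136 CPM at passage 3, with 3 of 4 listed lower. The 6 listed smooth muscle markers summed to 6519 CPM at passage 10 and 4506 CPM at passage 3, with 3 higher and 1 lower past 2-fold. The 4 listed chondrocyte and bone markers summed to 194 CPM at passage 10 and 48.7 CPM at passage 3, with 3 higher past 2-fold. Tie1, Ptprc, Adgre1, Tyrobp, Myocd, Sp7, Ibsp and Bglap, which belong to these marker lists, are not listed at both passages. The 4 listed heart muscle markers summed to 46.0 CPM at passage 10 and 7.02 CPM at passage 3, most of it Tnnt2. All 4 had a log2 ratio above 0, and 1 was higher past 2-fold. The part of these cell types in the members' values was not tested.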

How the data were processed

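RNA-seq and RIP-seq tables of mouse aortic VSMC were used. Per the submitters' processing notes, bcl2fastq, Subread, featureCounts and limma were applied with the mm9 build, and neither their settings nor the use of strand is given in the sources used here. As deposited, the RNA-seq values are raw read counts of each gene. For RIP-seq the authors gave raw counts, a normalized signal and a ratio of immunoprecipitate to input, per the file headers, and only the counts were analysed. Their 4 lists of selected targets served for membership alone. Genes with few reads in both libraries are not listed there. The authors' deposited comparison of shThoc5 with shNT gives log2 fold changes and p-values per gene, and gene lengths come from the same source. Spans of genes on the chromosome were not used as lengths.

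Gene names came from RefSeq (GRCm38.p6), which matched 24191 of 26301 RNA-seq and 14732 of 15352 RIP-seq identifiers. Counts were scaled by TMM, filtered with filterByExpr and tested with edgeR 4.0.16's quasi-likelihood test in R 4.3.3 over all genes, with p-values adjusted by Benjamini-Hochberg and called under 0.05, on the 4 RNA-seq libraries. DESeq2 1.42.0 and limma-voom (limma 3.58.1) were alternatives, with other scalings, filters, a replicate block and each library left out. RPKM used the authors' gene lengths. RIP-seq ratios were taken on CPM with 0.5 CPM added, with other added amounts, denominators, scalings, read minimums and folds as alternatives. The edgeR quasi-likelihood test and the RIP-seq ratios were tested on simulated data, and DESeq2 and limma-voom were not.

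The 10 members and the gene lists were chosen with earlier results of these data known. Genes named from a list were those with the lowest p in edgeR's test (up to 3 a list) or the highest enrichment among those called (up to 2 a list and comparison), and others were named after their values were seen. The length classes were set after the values were seen. Intervals cover counting error only.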

Additional observations from a re-analysis of the deposited data

Results flagged for a closer look

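Thbs1 stood on opposite sides of its input between passages and between antibodies. With Thoc5 its log2 ratio to input was 0.675 at passage 10 and −0.033 at passage 3, and at passage 3 it was 0.244 with Thoc2. Ecm1 differed in sign between the antibodies at passage 3, with a log2 ratio of 0.177 with Thoc5 and −0.489 with Thoc2. With median of ratios scaling Ecm1 was below 0 with both, at −0.087 with Thoc5 and −0.456 with Thoc2. Each value comes from 1 library against 1 input, so these differences were not tested, and the 2 ratios of a passage share their input.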

How the results depend on the processing

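The RNA-seq count of 0 called genes became 47 with DESeq2, 1 without a filter on low counts and 0 to 47 on leaving out 1 library in turn, with 47 without shThoc5 replicate 1 and 0 without each of the others. The median log2 fold change of the 10 genes then ran from −0.208 to 0.099. The sign of Postn turned with DESeq2 (−0.001), limma-voom (−0.023), RLE scaling (−0.001) and a minimum of 10 reads in every library (−0.001). Leaving out 1 library turned the sign of Fn1 (−0.237 to 0.319), Spp1 (−2.305 to 3.156), Mgp (−0.447 to 0.372), Tnc (−0.108 to 1.355), Postn (−0.491 to 0.356) and Vcan (−0.421 to 0.04), while Sparc kept its direction (−1.52 to −0.704). The cause was not tested.

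With the replicate number as a block, edgeR's quasi-likelihood test called 511 genes (3.77%), 179 higher and 332 lower with shThoc5, and Postn had a log2 fold change of −0.033. Sparc was the 1 member called (−1.101, adjusted p = 0.00386), and over all alternatives its adjusted p ran from 0.00386 to 0.9995. The labels do not say what a replicate number shares. Deviations from the group means correlated between same-numbered libraries (r = 0.635). With 2 libraries a group these deviations mirror each other, so both pairs give the same value by construction. It cannot settle whether the numbers are a pairing.

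In RIP-seq, leaving ribosomal and mitochondrially encoded RNA out of the totals left 1 member depleted with Thoc2 at passage 3, and gave 1 at passage 10. Median of ratios scaling gave 0 members enriched with Thoc5 at passage 3 and 1 member higher in the passage 10 input. At 1.5-fold, Thoc5 had 1 member enriched and 1 depleted at passage 10 and 2 depleted at passage 3, and Thoc2 had 1 enriched and 4 depleted at passage 10. Also at 1.5-fold, 1 member was lower with Thoc5 than Thoc2 at passage 10, 2 were higher at passage 3, and 4 were higher in the passage 10 input. The other 72 counts of members in RIP-seq moved by 1.5 times or less, among them the 2 members enriched with Thoc2 at passage 3, which became 3 with Vcan under each of the denominator without that RNA and 1.5-fold.

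The RNA-seq spread rests on 2 libraries a group, and with 1 library at each point of RIP-seq the spread between immunoprecipitations cannot be estimated. Depth limits Vcan most among the members, with the widest counting intervals.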

Other observations

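Receptors and partners of the matricellular proteins differed widely between the RIP-seq inputs, and the genes given here were chosen after their values were seen. Of 20 receptor genes 17 were listed at both passages, with 3 higher and 10 lower past 2-fold at passage 10, and of 16 hyaluronan and versican partners 11 were listed, with 2 higher and 5 lower. Over all 13018 genes, 30.7% were higher and 12.3% lower. Cd44, the hyaluronan receptor, was at 65.6 CPM at passage 10 against 1496 CPM at passage 3. Itga5, the α subunit of the classical fibronectin receptor, was at 208 CPM at passage 10 against 1855 CPM at passage 3, whereas Fn1 itself was higher at passage 10. Itgb5, an integrin β subunit that pairs with Itgav to bind vitronectin, was at 933 CPM at passage 10 against 235 CPM at passage 3. The hyaluronan synthase Has1 was at 1.47 CPM at passage 10 against 25.8 CPM at passage 3, and Tnfaip6 at 0.578 CPM at passage 10 against 49.4 CPM at passage 3.

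Of 15 genes of the matrix Gla pathway and mineralisation 14 were listed at both passages, with 4 higher and 2 lower past 2-fold at passage 10, close to those shares of all genes. Bmp4, a bone morphogenetic protein, was at 473 CPM at passage 10 against 45.2 CPM at passage 3. Ank, the pyrophosphate transporter, was at 370 CPM at passage 10 against 49.4 CPM at passage 3, and Phospho1, a phosphatase that starts mineralisation in bone, was at 36.9 CPM at passage 10 against 4.98 CPM at passage 3. Alpl, the tissue non-specific alkaline phosphatase, was lower, at 0.84 CPM at passage 10 against 6.71 CPM at passage 3. Ggcx, which carboxylates Mgp, was at 24.1 CPM at passage 10 and 29.4 CPM at passage 3. Each input is 1 library, so none of these differences has a replicate check.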
